A study of Danio rerio with 6 samples.

Results

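The genes of the circadian clock and of its light input were examined in the gut of zebrafish larvae at 5 dpf (days post-fertilization). With earlier results of these data known, the members were chosen by symbol, from a list of 50 symbols. Of these, 7 are RefSeq synonyms of another symbol on the list (bmal1a, bmal1b, bmal2, cry1aa, cry1ab, cry1ba and cry1bb), and 1, ciartb, was not analysed here. The remaining 42 members were found among the 15419 genes of the count table, where the BMAL genes are listed as arntl1a, arntl1b and arntl2. Enough counts for a test were present for 34 of them, among 11095 genes tested.

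The vertebrate clock is a transcriptional feedback loop. CLOCK and BMAL proteins activate genes that carry E-boxes, among them the period and cryptochrome genes, whose products repress CLOCK and BMAL in turn. REV-ERB and ROR proteins compete at a shared element to repress or activate the BMAL genes, while PAR bZIP factors activate and NFIL3 represses genes that carry D-boxes. In zebrafish, peripheral tissues hold clocks that light sets directly. Transcripts of clock and bmal genes peak around dusk there, those of several period, REV-ERB and PAR bZIP genes around dawn, and per2, cry1a and some photolyase genes are induced by light.

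There were 3 libraries from il26KO larvae and 3 from wild-type (WT) larvae. The il26KO larvae carry a CRISPR/Cas9 deletion in il26, which encodes a cytokine of the IL-10 family, and the WT line was AB. Each library pooled RNA from 10 to 15 guts, and nothing else distinguishes the groups in the labels. The larvae of each genotype came from clutchmate adults kept in separate tanks, so genotype and parental tank cannot be told apart. The light schedule and the hour of dissection of each pool were not given in the sources used here.

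Total counts ranged from 15693057 to 28303340 per library, and 3 counts corresponded to 0.106 to 0.191 CPM, the unit of level used here (counts over the library total, scaled by the trimmed mean of M-values). CPM is not corrected for gene length, so levels are compared between libraries and not between genes. The targeted gene il26 was listed at 0 counts in all 6 libraries, so the labels could not be checked from it. Of 10 enterocyte markers, 9 exceeded 3 counts in every library, with a summed level of 30656 to 32241 CPM in il26KO and 26197 to 32062 CPM in WT. Acinar pancreas markers summed to 41264 to 65958 CPM in il26KO and 51367 to 66481 CPM in WT, and liver markers to 11227 to 14646 CPM in il26KO and 8880 to 19970 CPM in WT, so transcripts of these organs were present. Of 12 retina and pineal markers, 7 were at 0 in every library (rho, opn1mw1, opn1sw1, gnat1, crx, otx5 and arr3a), and the list summed to at most 3.14 CPM. Blood markers were the only list of the 7 whose summed levels did not overlap, with 37.8 to 52.6 CPM in il26KO and 53.2 to 100.1 CPM in WT. Only 4 of the 8 blood markers exceeded 3 counts in every library, and 3 of these markers were at 0 in every library. Their part in the results was not tested. In such bulk samples, fewer cells of a type and less RNA per cell cannot be told apart.

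To ask whether the clock genes differed between the genotypes, il26KO was compared with WT across all genes. By the quasi-likelihood test of edgeR, with Benjamini-Hochberg adjustment over all genes, 0 of the 34 tested members were called at an adjusted p of 0.05, against 0.108% of all tested genes. At an unadjusted p-value below 0.05, 2 members passed, nr1d2a and nfil3-6, both higher in il26KO, where 6.03% of all tested genes passed. This count of 2 was 4 without il26KO replicate 1 (nr1d2a higher, and cry-dash, cry2 and cry5 lower, in il26KO), 1 without WT replicate 1 and 6 without WT replicate 3, all 6 higher in il26KO. The share of all tested genes passing was not counted in these fits, so their counts are not read as a trait of the members. DESeq2 called 1 member, nr1d2a (0.811% of all genes), and the edgeR likelihood ratio test called the same gene (0.838% of all genes). Members were higher in il26KO in 22 cases and lower in 12, where 5907 of the tested genes were higher and 5188 lower. The members' median log2 fold change was 0.062, beside 0.011 over all tested genes. Under some alternative fit, the sign turned for 16 of the 34 members. The genotypes did not overlap for 3 members, nr1d2a, nr1d2b and csnk1e, beside 10.9% of all tested genes.

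**Figure D1:**
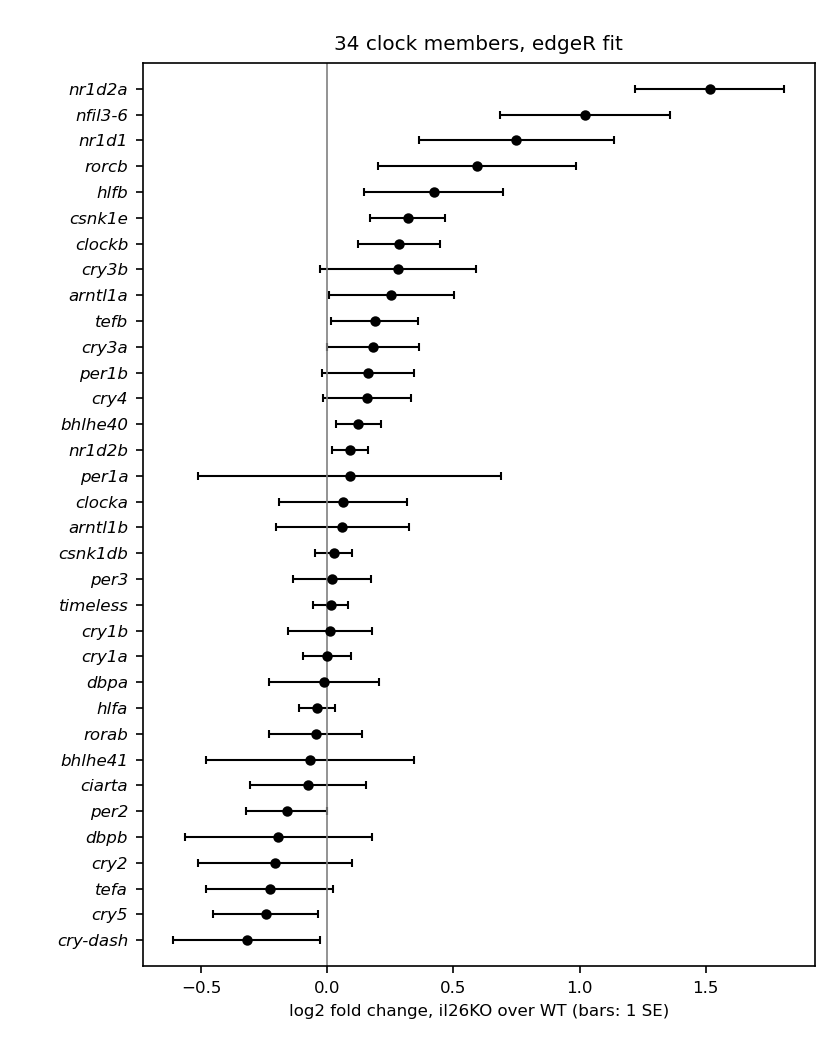
Log2 fold change (il26KO over WT, horizontal axis) of the 34 tested clock members, with bars of 1 SE from the edgeR fit over 3 libraries per genotype. nr1d2a lies farthest to the right at 1.52, and most members lie within 2 SE of 0.

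Most of the members' variation lay between libraries of the same genotype, as it did for the typical gene. The median share between genotypes was 11% for the members and 13.4% for all tested genes. The 3 highest CPM values belonged to il26KO 1, WT 1 and WT 2 in 16 members and to il26KO 2, il26KO 3 and WT 3 in 9 members. In all, 25 of 34 members (73.5%) ordered the libraries in either of these opposite ways, beside 17% of all tested genes. The order ran across the genotypes, since each trio holds libraries of both. It was seen in all 4 tested CLOCK and BMAL genes, in all 9 period and cryptochrome genes listed as repressors, and in 5 of 6 PAR bZIP genes. It was seen in none of the 3 REV-ERB genes. These trios were noticed in the values, as the commonest among these same members, so the 73.5% is raised by that choice. It is not read as a test against the 17%. The trios are not groups of the study, so they were not averaged or tested against each other. Nothing in the labels separates them. Total counts were 22054088, 25260779 and 27225697 in il26KO 1, WT 1 and WT 2 and 15693057, 28303340 and 23247771 in il26KO 2, il26KO 3 and WT 3. The part of library depth in this order was not tested.

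**Figure D2:**
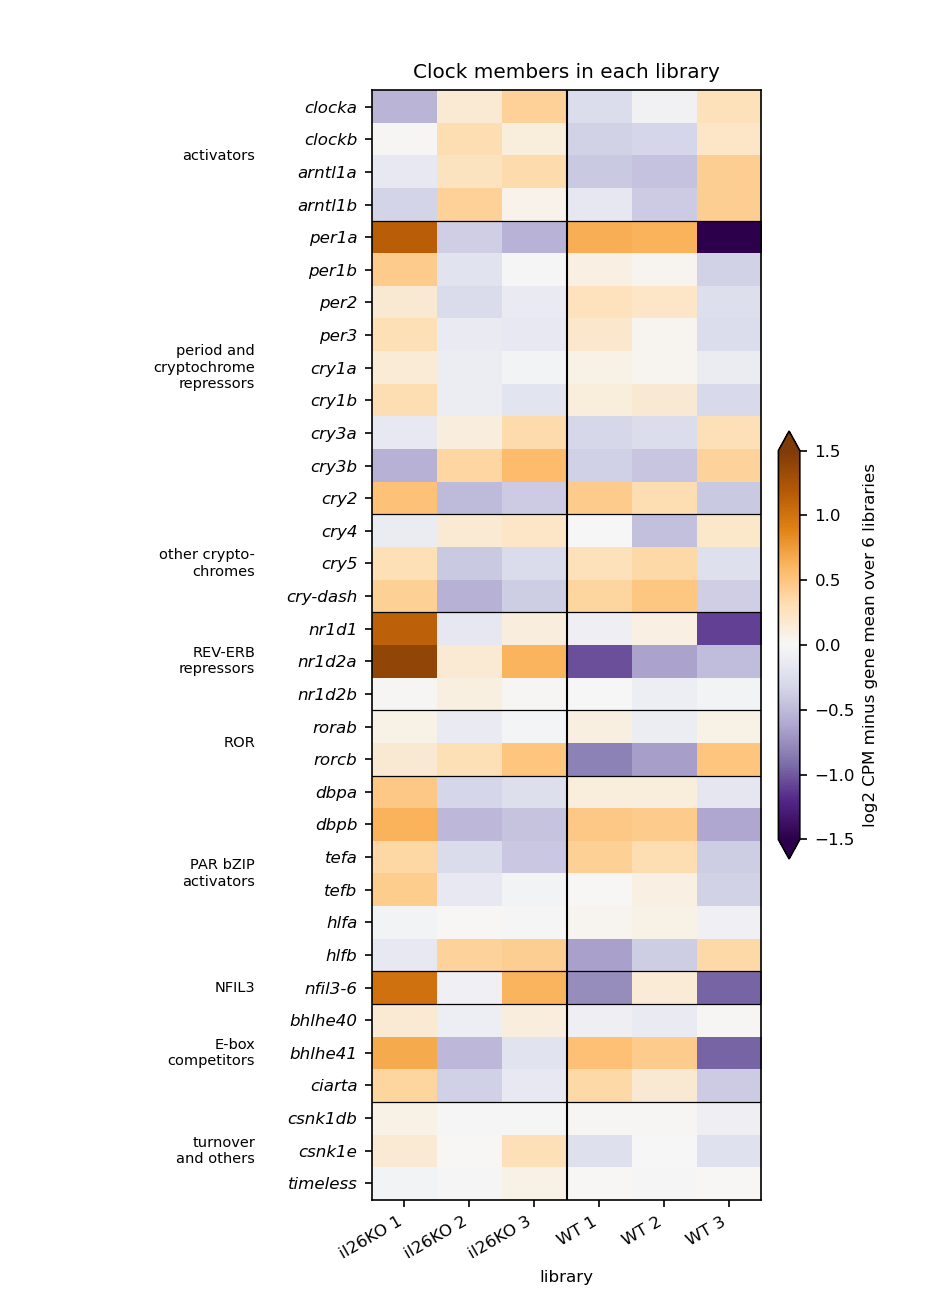
Each row is 1 of the 34 tested members and each column a library, with il26KO left and WT right of the black line. Colour gives log2 CPM minus the gene's mean over the 6 libraries. Activators and most period, cryptochrome and PAR bZIP genes show opposite colours, and il26KO 1 resembles WT 1 and WT 2 rather than il26KO 2 and il26KO 3.

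CLOCK and BMAL proteins are the activators of the loop, and their genes had their lowest values in il26KO 1, WT 1 and WT 2. For clockb, a CLOCK gene, the CPM values were 18.5, 22.8 and 19.96 in il26KO 1 to 3 and 14.4, 14.7 and 21.3 in WT 1 to 3. Its log2 fold change was 0.28 ± 0.16 (SE; edgeR adjusted p = 0.884), and WT 3 lay among the il26KO libraries. For clockb, il26KO 1 was nearer to il26KO 3 than to WT 1 and WT 2, so its place in the order rests on a small step. The other CLOCK gene, clocka, had 2.997, 4.92 and 5.85 CPM in il26KO 1 to 3 and 3.66, 4.24 and 5.35 CPM in WT 1 to 3. Its lowest and its highest library were thus both il26KO, and the log2 fold change was 0.064 ± 0.25 (SE; edgeR adjusted p = 0.986).

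Both BMAL genes also had their highest values in il26KO 2, il26KO 3 and WT 3, though not in the same order within that trio. Levels of arntl1a were 8.85, 11.7 and 12.3 CPM in il26KO 1 to 3 and 7.35, 7.11 and 13.2 CPM in WT 1 to 3. The log2 fold change was 0.25 ± 0.25 (SE; edgeR adjusted p = 0.921), while WT 3 exceeded WT 2 by 1.85-fold. Levels of arntl1b were 2.86, 4.86 and 3.77 CPM in il26KO 1 to 3 and 3.25, 2.76 and 4.93 CPM in WT 1 to 3. The log2 fold change was 0.060 ± 0.27 (SE; edgeR adjusted p = 0.986). The remaining activators had too few counts. npas2, a CLOCK paralog, had 3 counts in total, and arntl2 was listed at 0.

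The period genes, whose proteins are the loop's negative arm, ran the other way. per1a had 52.0, 18.1 and 16.0 CPM in il26KO 1 to 3 and 36.6, 36.2 and 8.06 CPM in WT 1 to 3. Each genotype thus held high and low libraries, and the highest exceeded the lowest by 6.45-fold. The mean was 28.7 ± 20.2 CPM in il26KO and 27.0 ± 16.4 CPM in WT (SD, n = 3 each), and their log2 fold change was 0.089 ± 0.60 (SE), at an adjusted p of 0.989 in edgeR. An interval of 2 SE either side of it ran from -1.11 to 1.29, so these libraries do not tell apart differences within that range. The interval is no limit of detection, and a larger difference in per1a could also have gone uncalled. The sign of the log2 fold change turned without il26KO replicate 1 (-0.69) and without WT replicate 3 (-0.34).

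per3 varied less, with 162.9, 121.9 and 119.4 CPM in il26KO 1 to 3 and 152.0, 136.3 and 110.6 CPM in WT 1 to 3. Its log2 fold change was 0.019 ± 0.16 (SE; edgeR adjusted p = 0.993). The highest library exceeded the lowest by 1.47-fold, and by 1.74-fold for per1b. The order of libraries was the same for all 3 of these genes in the sense that il26KO 1, WT 1 and WT 2 held the highest values.

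Among the cryptochromes, relatives of photolyases that repress CLOCK and BMAL, paralogs ran in opposite directions. cry1a, cry1b and cry2 were highest in il26KO 1, WT 1 and WT 2, and cry3a and cry3b in il26KO 2, il26KO 3 and WT 3. cry3b had 15.6, 29.6 and 33.9 CPM in il26KO 1 to 3 and 17.9, 17.1 and 30.2 CPM in WT 1 to 3. cry2 had 53.5, 26.3 and 28.2 CPM in il26KO 1 to 3 and 50.9, 46.0 and 28.0 CPM in WT 1 to 3. cry1a, by contrast, stayed between 107.7 and 128.6 CPM in all 6 libraries. Of the 9 period and cryptochrome genes in this list, 6 were higher and 3 lower in il26KO, 0 were called by edgeR or DESeq2 and 0 passed before adjustment, with a median log2 fold change of 0.019.

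Genes of light-responsive classes were highest in the same libraries as the period genes. cry-dash, a cryptochrome of the DASH type, had 38.05, 19.4 and 21.9 CPM in il26KO 1 to 3 and 37.1, 39.96 and 22.1 CPM in WT 1 to 3. cry5, which encodes a photolyase that repairs ultraviolet lesions in DNA with light, had 49.0, 30.04 and 33.0 CPM in il26KO 1 to 3 and 48.2, 50.6 and 34.1 CPM in WT 1 to 3. For both genes, il26KO 1 was close to WT 1 and WT 2, and WT 3 was close to il26KO 2 and il26KO 3. per2, a light-induced period gene, had 118.9, 87.2 and 96.7 CPM in il26KO 1 to 3 and 126.5, 123.0 and 89.1 CPM in WT 1 to 3. cry4 was the exception of this class, with its highest values in il26KO 2, il26KO 3 and WT 3 and a range of 8.03 to 12.9 CPM.

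**Figure D3:**
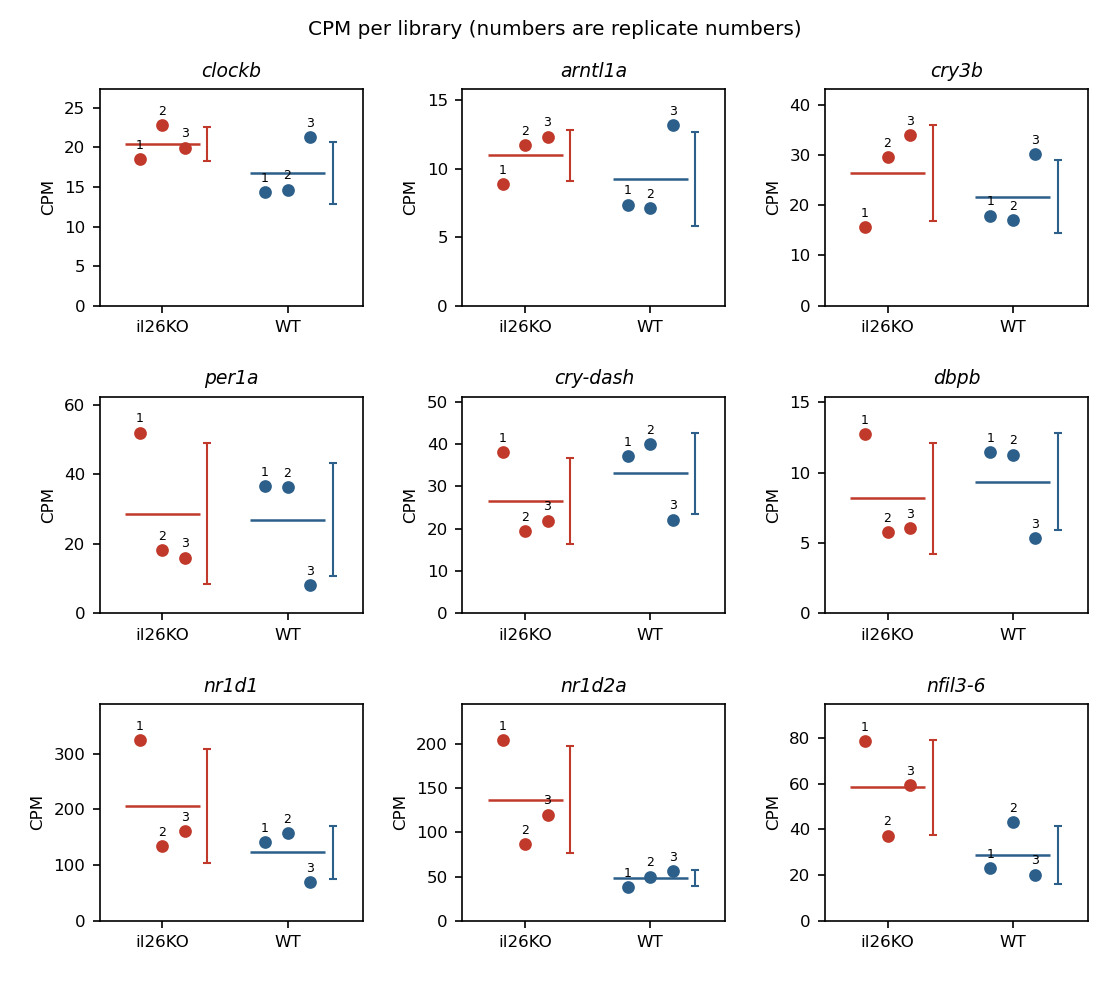
CPM (vertical axes, from 0) of 9 members in the il26KO libraries (red) and the WT libraries (blue), with replicate numbers above the points, the mean as a line and the SD as a bar. In the upper row WT 3 lies above WT 1 and WT 2 and il26KO 1 below the other il26KO libraries, and in the middle row both are reversed. For nr1d2a all 3 il26KO libraries, at 86.9 CPM or more, lie above all WT libraries.

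The REV-ERB genes, nuclear receptors that repress the BMAL genes, did not follow that order over all 6 libraries. They held the largest genotype difference among the members. nr1d2a had 204.4, 86.9 and 119.9 CPM in il26KO 1 to 3 and 38.02, 49.97 and 55.9 CPM in WT 1 to 3. All il26KO libraries exceeded all WT libraries, and the means were 137.0 ± 60.6 CPM in il26KO and 48.0 ± 9.11 CPM in WT (SD, n = 3 each). This is a log2 fold change of 1.52 ± 0.30 (SE), for which edgeR gave a p-value of 0.000924 before adjustment and 0.209 after it. The fold change stayed between 1.09 and 1.74 under every alternative run, with adjusted p-values of 0.0787 to 0.684 when single libraries were left out. DESeq2 gave an adjusted p-value of 5.05e-06 and the edgeR likelihood ratio test 0.000325, so whether nr1d2a was called depended on the test.

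nr1d1, the other well-studied REV-ERB gene, had 324.2, 133.5 and 160.8 CPM in il26KO 1 to 3 and 141.0, 157.5 and 69.3 CPM in WT 1 to 3. The lowest library was WT 3 and the highest il26KO 1, and the genotypes overlapped. Within each genotype nr1d1 showed the step of the period genes, with il26KO 1 above the other il26KO libraries and WT 3 below the other WT libraries. The log2 fold change was 0.75 ± 0.39 (SE; edgeR adjusted p = 0.873), and it was 0.25 without il26KO replicate 1 and 0.47 without WT replicate 3. A fit that held the mean log2 CPM of clocka, clockb, arntl1a and arntl1b constant as a covariate was added after seeing the data. In it nr1d1 passed, at 1.07 ± 0.10 on the log2 scale (SE; edgeR adjusted p = 0.0410), the only one of the 30 members tested there to do so, where 0.0811% of all genes passed. Over all alternatives the adjusted p-value of nr1d1 ranged from 0.0410 to 1.00. That covariate splits the 6 libraries into the trios described above and was chosen after they were seen, so it removes the spread that prompted it, and this call is no independent support for a genotype difference in nr1d1.

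The paralog nr1d2b differed from both. It had 179.8, 190.9 and 179.5 CPM in il26KO 1 to 3 and 176.3, 167.6 and 172.7 CPM in WT 1 to 3, a range of 1.14-fold over the 6 libraries. The genotypes did not overlap, but the log2 fold change was only 0.091 with an edgeR adjusted p-value of 0.906. nr1d4a and nr1d4b had 23 and 53 counts in total and were not tested.

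Of the ROR genes, which activate at the element that REV-ERB proteins occupy, rorab and rorcb were tested and rorca was listed at 0. rorcb was low, at 1.04, 1.150 and 1.34 CPM in il26KO 1 to 3 and 0.487, 0.552 and 1.34 CPM in WT 1 to 3. Between genotypes the log2 fold change was 0.59 ± 0.39 (SE; edgeR adjusted p = 0.900), and WT 3 lay with the il26KO libraries. rorab stayed between 1.41 and 1.67 CPM.

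PAR bZIP factors, output activators of the clock that bind D-boxes, followed the period genes in 4 of 6 cases (dbpa, dbpb, tefa and tefb). dbpb had 12.7, 5.75 and 6.03 CPM in il26KO 1 to 3 and 11.5, 11.3 and 5.35 CPM in WT 1 to 3. Its log2 fold change was -0.19 ± 0.37 (SE; edgeR adjusted p = 0.964). tefa had 175.2, 113.6 and 102.4 CPM in il26KO 1 to 3 and 182.4, 170.9 and 105.0 CPM in WT 1 to 3. For tefa the log2 fold change was -0.23 ± 0.25 (SE; edgeR adjusted p = 0.928). For both genes the values fell into a high and a low trio, with libraries of both genotypes in each.

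The hlf genes of the same family did not. hlfb had 4.36, 6.33 and 6.52 CPM in il26KO 1 to 3 and 3.05, 3.68 and 6.14 CPM in WT 1 to 3, the order of the activators. The genotype difference of hlfb was a log2 fold change of 0.42 ± 0.27 (SE), with an adjusted p of 0.893 in edgeR. hlfa stayed between 54.2 and 59.5 CPM in all 6 libraries.

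NFIL3 proteins repress at D-boxes, and their only tested gene here was nfil3-6. It had 78.6, 37.2 and 59.5 CPM in il26KO 1 to 3 and 23.0, 43.2 and 20.1 CPM in WT 1 to 3. Mean levels were 58.4 ± 20.7 CPM in il26KO and 28.8 ± 12.6 CPM in WT (SD, n = 3 each), and WT 2 exceeded il26KO 2. On the log2 scale the difference was 1.02 ± 0.34 (SE), and the p-value of edgeR was 0.0164 before adjustment and 0.658 after it. nfil3 had 1 count in total and nfil3-5 was listed at 0.

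Further repressors act at E-boxes. bhlhe41, a basic helix-loop-helix repressor also known as DEC2, had 14.7, 6.46 and 8.01 CPM in il26KO 1 to 3 and 13.4, 12.6 and 4.72 CPM in WT 1 to 3. Its log2 fold change was -0.069 ± 0.41 (SE; edgeR adjusted p = 0.988), and the highest library exceeded the lowest by 3.12-fold. Its paralog bhlhe40 had 197.4, 166.3 and 191.8 CPM in il26KO 1 to 3 and 168.3, 163.1 and 178.6 CPM in WT 1 to 3, and the genotypes overlapped. The log2 fold change of bhlhe40 was 0.12 ± 0.090 (SE; edgeR adjusted p = 0.901). ciarta, the zebrafish counterpart of the repressor CHRONO, ranged from 46.6 to 79.7 CPM, with the order of the period genes.

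Genes of clock protein turnover varied little. csnk1e, a casein kinase of the kind that phosphorylates period proteins, had 3.50, 3.13 and 3.81 CPM in il26KO 1 to 3 and 2.64, 3.09 and 2.67 CPM in WT 1 to 3. The genotypes were separated only by the narrow step between il26KO 2 and WT 2, and the log2 fold change was 0.32 ± 0.15 (SE; edgeR adjusted p = 0.857). csnk1db ranged from 178.1 to 198.1 CPM. timeless, whose product acts mainly at replication forks in mammals, ranged from 25.8 to 28.0 CPM. fbxl3a, a ubiquitin ligase subunit that targets cryptochromes, was listed at 0. Such zeros need care, since csnk1a1 and wee1, kinases used widely by cells, were also listed at 0 and fus had 1 count.

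Phase-like groups were then set side by side as scores, the mean over a group's tested genes of log2 CPM minus each gene's mean over the 6 libraries. The score of the 4 CLOCK and BMAL genes was -0.25, 0.28 and 0.23 in il26KO 1 to 3 and -0.29, -0.30 and 0.34 in WT 1 to 3. No library lay between -0.25 and 0.23. The score of 12 period, REV-ERB and PAR bZIP genes was 0.51, -0.12 and -0.057 in il26KO 1 to 3 and 0.018, 0.062 and -0.41 in WT 1 to 3. Its sign was opposite to that of the 4 CLOCK and BMAL genes in every library. In il26KO 3, WT 1 and WT 2, however, the score of the 12 genes lay near 0, between -0.057 and 0.062. The 12 genes hold 3 period and 3 REV-ERB genes, which encode repressors, and the 6 PAR bZIP genes, which encode activators of clock output, so the score groups genes by their usual phase and not by the action of their products.

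The score of per2, cry1a and cry5 was 0.20, -0.26 and -0.15 in il26KO 1 to 3 and 0.20, 0.20 and -0.20 in WT 1 to 3, so that il26KO 1, WT 1 and WT 2 were nearly equal. The planned activator score also held nfil3-6, which was left out above after the values were seen, and with it the score was 0.0014, 0.21 and 0.30 in il26KO 1 to 3 and -0.39, -0.21 and 0.079 in WT 1 to 3. With nfil3-6 the gap was lost. In il26KO 1 the score was then so near 0 that its sign turned with the prior count, to -0.0014 at a prior count of 0.5. These scores are descriptions with no test, and no correlation between groups was run over the 6 libraries.

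**Figure D4:**
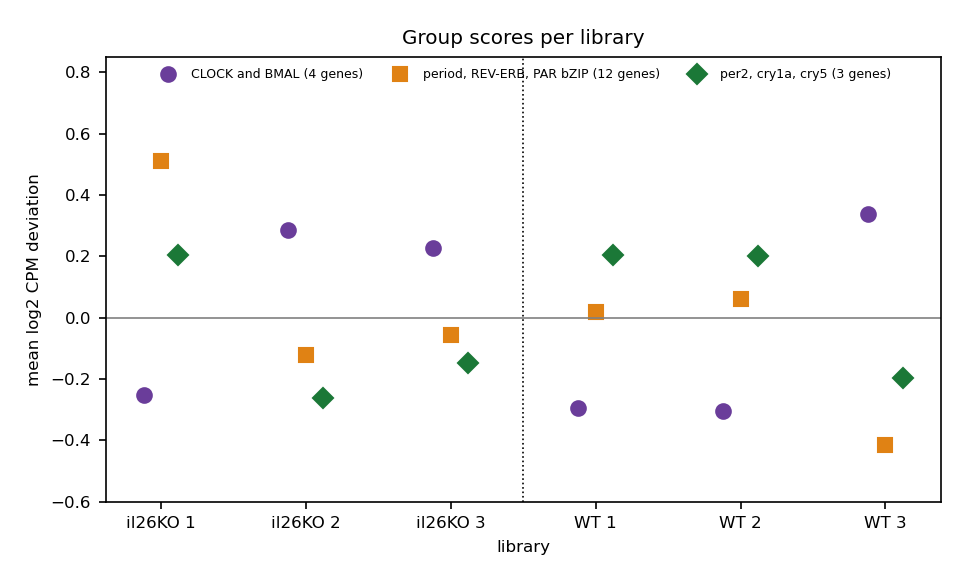
Mean log2 CPM deviation (vertical axis) of the CLOCK and BMAL genes (circles), of 12 period, REV-ERB and PAR bZIP genes (squares) and of per2, cry1a and cry5 (diamonds) in each library, with il26KO left of the dotted line. Circles and squares lie on opposite sides of 0 in every library, though the squares of il26KO 3, WT 1 and WT 2 lie near 0. The circles of il26KO 1, WT 1 and WT 2 lie between -0.25 and -0.30.

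The spread between libraries was measured for each member as the SD of log2 CPM within genotype. Its median was 0.338 over the 34 members, beside 0.153 over all tested genes, and 12 members lay in the top 10% of all genes. The largest SD values were 1.102 for per1a, 0.73 for bhlhe41, 0.66 for nr1d1, 0.63 for dbpb and 0.57 for nfil3-6. Low spread was found for timeless and nr1d2b, both at 0.044. Genotype took up a median of 11% of a member's variance over the 6 libraries, beside 13.4% over all tested genes. It took up 76.8% for nr1d2a, 66.7% for csnk1e, 61.1% for nr1d2b and 55.7% for nfil3-6. For per1a and bhlhe41 it took up 0.806% and 0.0387%.

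**Figure D5:**
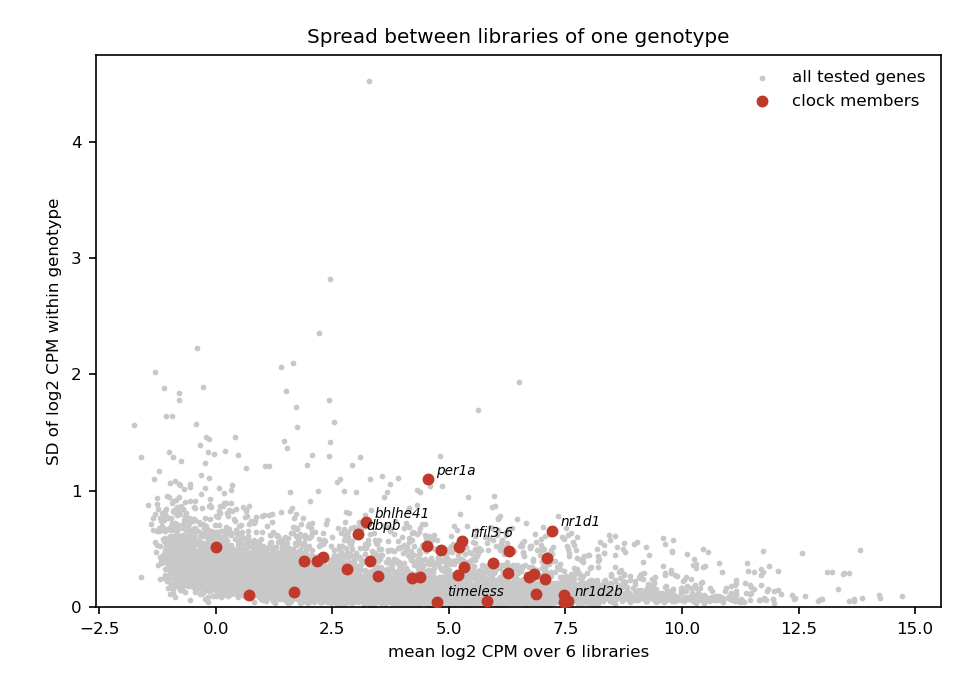
SD of log2 CPM within genotype (vertical axis) against mean log2 CPM (horizontal axis) for all 11095 tested genes (grey) and the 34 clock members (red), with the 5 most variable members, nr1d2b and timeless named. per1a, at an SD of 1.102, and nr1d1, at 0.66, lie above 99.5% and 97.4% of all tested genes.

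Zebrafish keeps many clock genes as duplicate pairs, and the copies varied to different extents over the 6 libraries. The highest library exceeded the lowest by 5.37-fold for nr1d2a and 1.14-fold for nr1d2b, and by 6.45-fold for per1a and 1.74-fold for per1b. The corresponding values were 2.14-fold for hlfb and 1.097-fold for hlfa. For bhlhe41 and bhlhe40, separate genes of one family rather than such a duplicate pair, they were 3.12-fold and 1.21-fold. In other pairs this range alone was of similar size, with 1.78-fold for tefa and 1.74-fold for tefb. It was 1.85-fold for arntl1a and 1.78-fold for arntl1b. Further pairs had 1.95-fold for clocka and 1.59-fold for clockb, and 1.75-fold for dbpa and 2.38-fold for dbpb. The cryptochrome pairs had 1.19-fold for cry1a and 1.53-fold for cry1b, and 1.56-fold for cry3a and 2.17-fold for cry3b. How reads shared between copies were counted is not given in the sources used here, so the share of each copy is uncertain.

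A further list of clock and light genes outside the members had 81 symbols, of which 67 were listed and 32 tested. Of these 32, 14 were higher and 18 lower in il26KO, with a median log2 fold change of -0.023. None was called by edgeR, beside 0.108% of all tested genes. At an unadjusted edgeR p-value below 0.05, 2 of the 32 passed, both higher in il26KO, a share close to the 6.03% of all tested genes. DESeq2 and the likelihood ratio test each called 1, klf9, beside 0.811% and 0.838% of all genes. The 2 genes that passed before adjustment were klf9, a Krüppel-like factor gene induced by glucocorticoids, and cdkn1d, a cyclin-dependent kinase inhibitor gene. klf9 had 225.5, 90.6 and 124.7 CPM in il26KO 1 to 3 and 36.3, 41.0 and 48.5 CPM in WT 1 to 3. The genotypes did not overlap, and the log2 fold change was 1.81 ± 0.31 (SE; edgeR adjusted p = 0.133). The order of the il26KO libraries was that of nr1d2a, but also that of nr1d1, nfil3-6, bhlhe40 and other members.

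cdkn1d had 8.72, 6.97 and 8.39 CPM in il26KO 1 to 3 and 4.51, 4.27 and 7.23 CPM in WT 1 to 3, and the log2 fold change was 0.60 ± 0.21 (SE; edgeR adjusted p = 0.717). tipin, which encodes the partner of Timeless, and hsf2, a heat shock factor gene, came next, with log2 fold changes of 0.48 ± 0.23 and -0.29 ± 0.15 (SE) and edgeR adjusted p-values of 0.857 and 0.875. The order of libraries seen in the members was present in 14 of the 32 genes, beside 17% of all tested genes. Of these 14, 8 had il26KO 1, WT 1 and WT 2 highest and 6 had the opposite order. cdkn1a, which encodes the cell cycle inhibitor p21 and was picked out after its values were seen, had 30.6, 12.02 and 11.1 CPM in il26KO 1 to 3 and 27.1, 25.8 and 9.40 CPM in WT 1 to 3. Of the opsin genes of the list, which encode light-sensing receptors, tmtops2a and rgrb had enough counts to be tested. The pineal opsin exorh had 46 counts over the 6 libraries and opn4a was listed at 0.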

How the data were processed

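The authors deposited raw counts per gene symbol, not normalized. The labels describe stranded poly(A) libraries, paired-end reads and the danRer11 genome. The aligner, counting tool, annotation and strand setting were not given in the sources used here, so overlapping genes and close paralogs are uncertain. The table held 0 further per-sample columns.

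The tests were run in R 4.3.3 with edgeR 4.0.16. The filter was filterByExpr (minimum count 10, minimum total 15), which left 11095 and set aside 4324. The quasi-likelihood test used genotype as the only factor, TMM scaling and Benjamini-Hochberg adjustment, with calls below 0.05. Tests were two-sided. The SE was derived from the F statistic and the fold change. A prior count of 2 entered log2 CPM. DESeq2 1.42.0 was an alternative.

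Members and lists were chosen with earlier results of these data known. CPM per library is given for the 8 members of smallest unadjusted p, the members of 4 planned pairs and the 5 of largest spread. per2, cry2, cry3b, cry5, cry-dash and nr1d2b were added after their values were seen. Outside the members, the 4 genes of smallest unadjusted p in the further list are named. Limits of 3 counts reflect counting error alone, as no molecular identifiers are stated and PCR copies are not separate molecules. Nothing says that replicates of one genotype came from separate clutches, so p-values measure only the spread between these pools. No promoter or protein sequences were used here.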

Additional observations from a re-analysis of the deposited data

How the results depend on the processing

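The count of 0 called members held under every scaling, filter and left-out library that was run. DESeq2 called 1, the likelihood ratio test 1 (nr1d2a in each) and the fit with the CLOCK and BMAL score as a covariate 1 (nr1d1, at a log2 fold change of 1.07). For nr1d2a the log2 fold change was 1.51 in both, and for klf9, called by both as well, it was 1.80 and 1.81. The count of 2 members at an unadjusted p-value below 0.05 was between 1 and 6 with any single library left out and 1 with the robust fit. It was 7 with the covariate, all 7 higher in il26KO. That covariate was made of members after their values were seen and removes spread they share, so these 7 are no independent support for genotype differences. The share of all genes at this p-value was not counted for these fits. Of the 34 members, 18 kept the sign of their log2 fold change under all alternatives and 16 did not. With each library left out in turn, log2 fold changes were -0.17 to 0.28 for clocka, -0.14 to 0.34 for arntl1b, -0.69 to 0.39 for per1a, -0.16 to 0.11 for per3 and -0.51 to 0.15 for bhlhe41. With the covariate they were 0.13 for dbpb and 0.36 for bhlhe41. The cause was not tested. Over all genes, 12 were called by the main test, 83 by DESeq2, 93 by the likelihood ratio test and 3 to 8 when single libraries were left out. Scores per library moved by less than the spread within genotype under the other scaling and prior count.

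With the replicate number as a block, 2 genes were called, none of them a member. In that fit 3 members had an unadjusted edgeR p-value below 0.05, and the share of all genes there was not counted. Over all tested genes, the deviations of same-numbered libraries from their genotype means had correlations of -0.226, -0.0426 and 0.114 for replicates 1, 2 and 3. With so few libraries, these values cannot settle whether same-numbered libraries were paired, and none is given for the members alone. The planned correlations between activators and repressors, with their alternatives, were not run because the libraries fell into separate sets of 3 by these genes and nfil3-5 was listed at 0. The planned promoter motifs were not searched, since no promoter sequence was used here.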
